A study of Mus musculus with 12 samples.

Results

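Gene expression was compared between 3 hearts with a disrupted Ino80 gene (KO) and 3 wild-type (WT) hearts of mouse embryos at E13.5, a stage named by its embryonic day. These 6 libraries were picked by their labels and make up 6 of the 12 libraries of the series; the other 6 are KO and WT hearts at E14.5. Per the labels, the tissue was the whole embryonic heart, the disruption was endothelial and used Tie2, and all 6 E13.5 embryos belong to litter 1. The WT group is made up of replicates 1, 4 and 2 and the KO group of replicates 3, 5 and 7, with 1 embryo per library. Not given in the sources used here are strain, kind of Tie2 driver, the deleted part of Ino80 and whether WT hearts carry a Tie2 transgene. Counts cover whole hearts, in which endothelial cells are a minority beside muscle, mesenchyme, epicardium and blood.

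INO80 is a chromatin remodeller, a multi-subunit enzyme that uses ATP to slide and space nucleosomes and acts in transcription, DNA replication and DNA repair. Tie2 is a receptor of endothelial cells, and Tie2 drivers are in general active in vascular endothelium, in the endocardium that lines the heart chambers, and in blood cells that descend from haemogenic endothelium, macrophages among them. In the mid-gestation heart, endothelial cells build the coronary vessels and send growth signals to the muscle wall, which thickens in this period.

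The target gene was read in every heart. Ino80, which encodes the ATPase of the complex (chromosome 2, 119373042 to 119477687 on GRCm38), lay at 36.6, 33.8 and 30.7 CPM, a count scaled by library size, in WT replicates 1, 4 and 2. In KO replicates 3, 5 and 7 it lay at 29.6, 29.6 and 29.6 CPM. All KO values were below all WT values, yet the log2 fold change of -0.19 ± 0.08 (approximate standard error, SE) did not pass the test (edgeR quasi-likelihood test, adjusted p = 0.451). The count covers the whole gene and all cells of the heart. Of the 15 INO80 subunits on the list, 0 passed, 8 lay above 0, and the median log2 fold change was 0.00. The nucleosome-binding transcription factor Yy1, which also works as a subunit, lay at 84.2 ± 2.02 CPM in WT and 75.7 ± 2.24 CPM in KO hearts (standard deviation, SD, n = 3 each; adjusted p = 0.365).

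Libraries held 49879860 to 182545647 counts, and globin transcripts took 0.591% to 1.20% of them. No library was a copy of another. KO replicate 5, the shallowest, stood apart in its macrophage genes, which are given with the blood cells. Y-linked genes were read in WT replicate 2 and KO replicates 3 and 7 (190 to 203 CPM in sum) and were near 0 in the other 3 embryos, so the sexes were unbalanced between the groups. Markers of the heart were at full height in all 6 libraries (the 20 sarcomere genes summed to 34059 to 41620 CPM). The liver genes Serpina1a and Fgb had 0 counts in 5 of the 6. The 7 tested liver genes summed to 3.01 to 3.57 CPM in WT and 1.98 to 2.39 CPM in KO hearts. The replicates are separate embryos of 1 litter. Each p-value weighs the group difference against a spread between embryos, which the main fit estimates from all 12 libraries, the E14.5 hearts of other litters included.

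Most genes lay near 0. The median log2 fold change over 20691 tested genes was 0.00, with 50.4% above 0. In 335 genes the KO level was at least 2-fold higher and in 388 at least 2-fold lower. KO and WT embryos did not overlap in 4059 genes (19.6% of those tested), 1747 of them higher and 2312 lower in KO. With an adjusted p under 0.05, 22 genes changed (0.106% of those tested), 4 up and 18 down, with log2 sizes from 0.47 to 4.51. In all 22 the groups did not overlap.

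**Figure D1:**
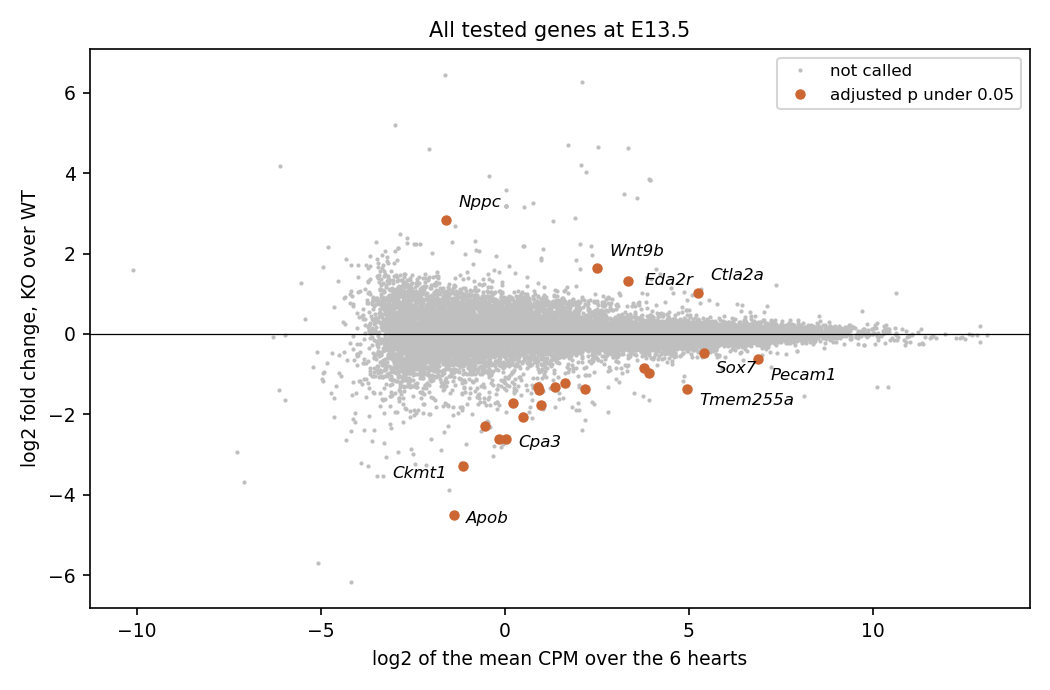
Log2 fold change at E13.5 (KO over WT, vertical axis) against the log2 of the mean CPM over the 6 hearts (horizontal axis), 1 point per tested gene. The 22 genes past the test are drawn large, 4 above and 18 below 0, and 3 of them (Nppc, Apob and Ckmt1) lie under 1 CPM in both groups.

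The genes that rose were led by secreted ligands and a receptor. Nppc encodes C-type natriuretic peptide, a hormone that endothelial cells release. It was read at 0.0756, 0.101 and 0.0641 CPM in WT replicates 1, 4 and 2 and at 0.707, 0.454 and 0.588 CPM in KO replicates 3, 5 and 7. These low levels rest on 14, 9 and 4 counts in WT and 70, 23 and 107 counts in KO hearts. Every KO heart was well above every WT heart, and the log2 fold change was 2.84 ± 0.39 (edgeR, adjusted p = 0.0160).

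Wnt9b, a Wnt ligand made by endocardium (chromosome 11, 103727364 to 103749821), lay at 2.87, 2.24 and 3.25 CPM in WT and 7.51, 7.86 and 10.5 CPM in KO hearts. It rose by 1.63 ± 0.24 on the log2 scale (edgeR, adjusted p = 0.0269), and KO replicate 7 was the highest. Eda2r, a receptor of the tumour necrosis factor family and a p53 target (chromosome X, 97333840 to 97377216), lay at 5.20, 6.50 and 5.69 CPM in WT and 13.6, 15.9 and 14.02 CPM in KO hearts. The 3 KO values were close together, and the gene rose by 1.32 ± 0.21 (adjusted p = 0.0465). Ctla2a, an inhibitor of cysteine proteases (chromosome 13, 60934155 to 60936625), lay at 22.3, 23.0 and 30.6 CPM in WT and 50.5, 48.4 and 54.9 CPM in KO hearts, a rise of 1.02 ± 0.13 (adjusted p = 0.0133). Its exons overlap 2 predicted genes on the same strand and it has a close relative, Ctla2b, so the share of reads given to it is uncertain.

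Among the genes that fell, Pecam1 and Sox7 mark endothelium. Pecam1, an adhesion molecule of endothelial junctions (chromosome 11, 106654217 to 106750628), lay at 149.9, 145.8 and 133.6 CPM in WT replicates 1, 4 and 2 and at 90.6, 93.9 and 94.5 CPM in KO replicates 3, 5 and 7. KO hearts kept 65.0% of the WT level, and the spread within each group was small beside the gap (log2 fold change -0.62 ± 0.08, edgeR, adjusted p = 0.00809). Sox7, a transcription factor of endothelial cells (chromosome 14, 63943673 to 63950732), lay at 51.5, 51.1 and 44.9 CPM in WT and 33.6, 36.0 and 37.3 CPM in KO hearts. It fell by 0.47 on the log2 scale (SE 0.07, adjusted p = 0.0348), the smallest change past the test. In whole hearts, fewer cells of a type and less RNA per cell cannot be told apart.

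Tmem255a, which encodes a transmembrane protein (chromosome X, 38196573 to 38252439), lay at 49.8, 45.5 and 37.8 CPM in WT and 18.7, 15.7 and 17.4 CPM in KO hearts. Its log2 fold change was -1.36 ± 0.15 (edgeR, adjusted p = 0.00809). Every KO heart was below every WT heart. Zbtb33 overlaps its exons on the opposite strand, and the strand setting of the counting is unknown. The smallest adjusted p belonged to C130074G19Rik, a protein-coding gene with a clone name that is named here after its values were seen (chromosome 1, 184871926 to 184883218). It lay at 19.0, 20.4 and 20.3 CPM in WT and 10.5, 9.73 and 10.4 CPM in KO hearts (-0.96 ± 0.08, edgeR, adjusted p = 0.000456).

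Ephb1, a receptor for ephrin-B ligands (chromosome 9, 101922128 to 102354693), lay at 4.90, 4.41 and 3.72 CPM in WT and 1.53, 2.03 and 2.03 CPM in KO hearts (-1.22 ± 0.19, adjusted p = 0.0291). Enpp3, an ectoenzyme that splits extracellular nucleotides, lay at 2.28, 2.11 and 2.48 CPM against 0.384, 0.513 and 0.720 CPM (-2.06 ± 0.28, adjusted p = 0.0160). St8sia6, a sialyltransferase, was at 2.80, 2.62 and 2.88 CPM against 0.889, 1.09 and 1.18 CPM (-1.39 ± 0.22, adjusted p = 0.0348). The complement lectin gene Colec11 (-1.31 ± 0.22, adjusted p = 0.0438) and Fam124b (-1.71 ± 0.29, adjusted p = 0.0470) fell as well, both from under 4 CPM. In each of these genes the lowest WT heart was above the highest KO heart.

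Blood cell and lipoprotein genes were represented by Cpa3 and Apob, both low. Cpa3, a carboxypeptidase of mast cell granules (chromosome 3, 20215620 to 20242181), lay at 2.52, 1.49 and 1.28 CPM in WT and 0.303, 0.197 and 0.341 CPM in KO hearts. It fell by 2.61 on the log2 scale (SE 0.39, edgeR, adjusted p = 0.0269). Of the 9 tested mast cell genes 5 lay above 0, the median was 0.04 and the lowest member lay at -2.94. In this list 2 members separated the groups downwards and 0 upwards, beside 11.2% and 8.44% of all genes. The mean log2 CPM of the list was lower in every KO heart (-1.05 to -0.41) than in every WT heart (-0.33 to -0.08). Its summed level overlapped, at 43.3 to 47.9 CPM in WT and 46.1 to 51.2 CPM in KO hearts. Most of that sum came from Kit (means of 23.73 CPM in WT and 27.31 CPM in KO hearts) and Gata2 (13.96 and 15.18 CPM). Both had log2 fold changes above 0, and Kit is also on the list of capillary and venous genes. The sum therefore says little about the other members. The tryptase gene Tpsb2 and the receptor gene Fcer1a had 0 counts in 4 and 6 of the 6 hearts, respectively. Apob, the scaffold of lipoprotein particles, had 138, 30 and 70 counts in WT and 3, 2 and 5 counts in KO hearts. Its fitted log2 fold change of -4.51 ± 0.70 (adjusted p = 0.0458) was the largest in size among the 22 and rests on those few KO counts.

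**Figure D2:**
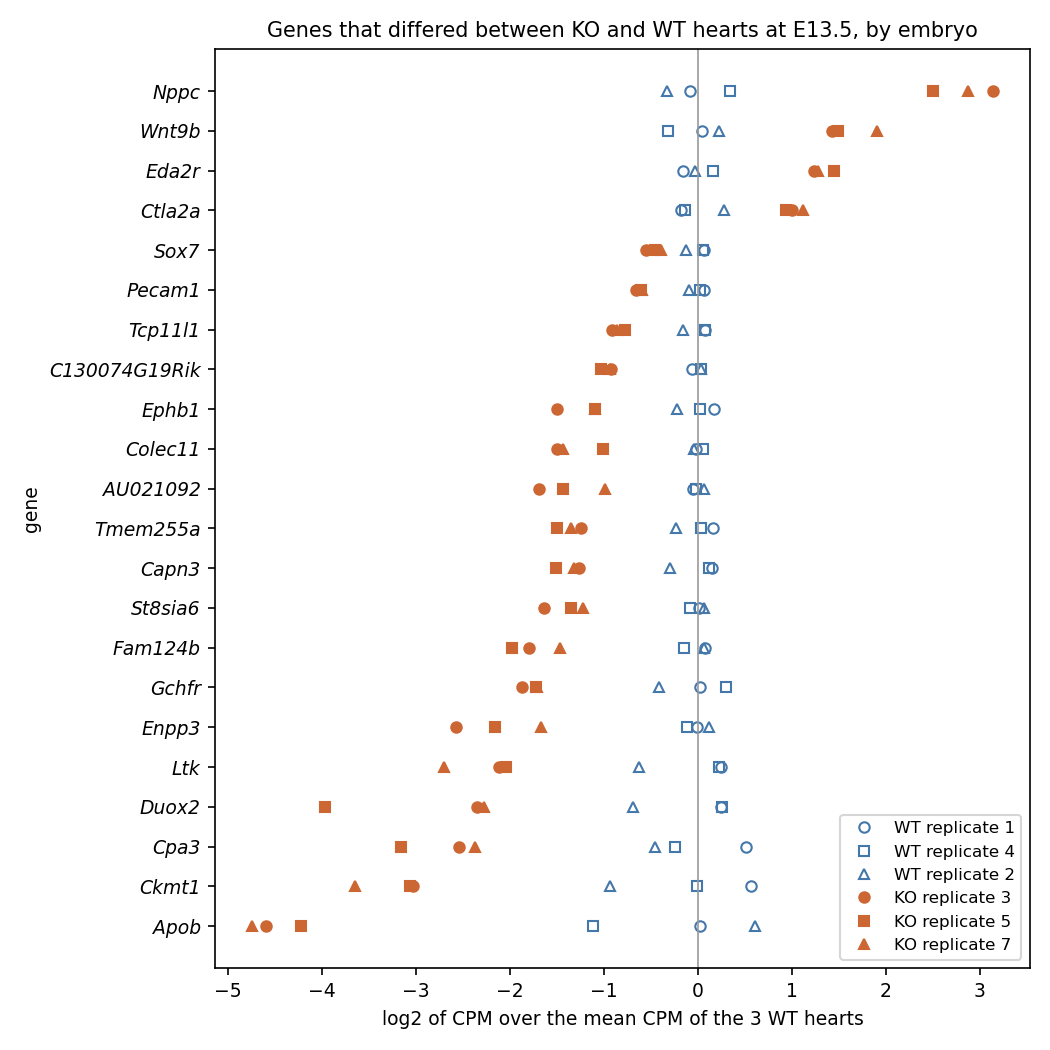
The 22 genes past the test at E13.5, 1 row per gene. Each point is 1 embryo, as the log2 of its CPM over the mean CPM of the 3 WT hearts (open WT, filled KO). In every row the KO points lie on one side of all WT points. WT replicate 2, the WT heart in which Y-linked genes were read, is nearest to KO in most rows. These rows include all 6 genes near Ino80. Another WT heart is nearest in C130074G19Rik, Nppc, Enpp3, AU021092, St8sia6, Apob, Eda2r and Fam124b.

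The position of the falling genes was looked at because Ino80 lies on chromosome 2, and a window of 20 Mb on each side was used with earlier results known. Of the 22 genes, 6 start within it (27.3%), and all 6 fell; 353 of all 20691 tested genes do (1.71%). Gchfr, which restrains the enzyme that starts tetrahydrobiopterin synthesis, lies 0.201 Mb from Ino80 and was read at 3.12, 3.78 and 2.31 CPM in WT and 0.838, 0.928 and 0.940 CPM in KO hearts (-1.77 ± 0.27, edgeR, adjusted p = 0.0291). Ltk, a receptor tyrosine kinase gene 0.274 Mb away, lay at 1.35, 1.33 and 0.737 CPM against 0.263, 0.276 and 0.176 CPM (-2.30 ± 0.35, adjusted p = 0.0272). The groups were far apart in both.

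Capn3, a calcium-dependent protease of muscle 0.978 Mb away, lay at 7.22, 7.06 and 5.29 CPM in WT and 2.71, 2.29 and 2.60 CPM in KO hearts (-1.36 ± 0.23, edgeR, adjusted p = 0.0458). Ckmt1, a mitochondrial creatine kinase 1.88 Mb away, fell by 3.28 (adjusted p = 0.0455), and Duox2, an oxidase that makes hydrogen peroxide 2.80 Mb away, fell by 2.61 (adjusted p = 0.0458). Tcp11l1, 14.7 Mb away, lay at 18.6, 18.5 and 15.7 CPM in WT and 9.37, 10.3 and 9.71 CPM in KO hearts (-0.85 ± 0.10, adjusted p = 0.00809). Exons of Capn3 overlap Ganc on the same strand, and those of Ckmt1 overlap Strc on the other. KO embryos may also differ from WT in the chromosome around a modified Ino80 allele; that inherited region and the loss of Ino80 cannot be told apart in these groups.

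Calls, more than fold changes, depended on single embryos. Without WT replicate 2, 21 genes passed, 16 of them among the 22. Without KO replicate 5, 6 genes passed and all 6 were among the 22: Nppc, C130074G19Rik, Tcp11l1, Pecam1, Ctla2a and Tmem255a. Leaving out WT replicate 1 or KO replicate 3 left 4 genes past the test each time, KO replicate 7 left 5, and WT replicate 4 left 2. Of the 22, only C130074G19Rik (highest adjusted p 0.00730) and Tmem255a (0.0478) passed whichever E13.5 library was left out. With Y-linked expression as a covariate 9 genes passed, 8 of them among the 22; the 14 that did not pass included Sox7, Eda2r and Cpa3. Over every setting run the log2 fold change of Sox7 lay between -0.53 and -0.43, that of Eda2r between 1.24 and 1.41 and that of Cpa3 between -2.79 and -2.26.

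The same genes were then read in the E14.5 hearts, 3 KO and 3 WT embryos of litters 2 and 3. Their counts moved the E13.5 fold changes only slightly (Apob lay at -4.51 in the 12-library and -4.52 in the 6-library fit). They entered the fit that chose the 22 genes, through the shared spread, the scaling of libraries and the low-count filter. The counts at E14.5 are therefore a description and not independent of the choice. All 22 had the same sign at E14.5, as did 62.2% of all tested genes and 74.6% of the genes without overlap at E13.5. At that stage 11 of the 22 passed (0.222% of all genes did), and 18 separated the groups without overlap in the same direction (12.7% of all genes did so in either direction). Of the 74 genes that passed only in a fit of the 6 E13.5 libraries, 4 passed at E14.5. Apob had 0 counts in all 3 KO hearts at E14.5. Eda2r had a log2 fold change of 1.86 (edgeR, adjusted p = 0.00616), Ctla2a of 1.21 (0.00404), Cpa3 of -2.69 (0.0123), Capn3 of -1.64 (0.0126) and Ephb1 of -1.19 (0.0241).

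In 15 of the 22 genes the fitted size was smaller at E14.5. The 22 were chosen by their E13.5 difference, which favours large E13.5 sizes, so this count does not show a change between the stages. Sox7 lay at -0.06 (adjusted p = 0.902), Pecam1 at -0.32 (0.118), Nppc at 0.72 (0.597) and Wnt9b at 0.91 (0.187). WT hearts at E14.5 held 0.320, 0.224 and 0.162 CPM of Nppc, above every E13.5 WT heart. The difference between the stages was itself tested: with edgeR's interaction contrast 0 genes of 20691 passed, 746 had an unadjusted p under 0.05, and 6 of the 22 were among those 746. These 6 were Nppc (unadjusted p = 0.00152), Sox7 (0.00173), St8sia6 (0.00744), Pecam1 (0.0138), Ckmt1 (0.0151) and Enpp3 (0.0164), each with an adjusted p of 0.997. The choice of the 22 by their E13.5 difference bears on these unadjusted p-values as well. Stage and litter cannot be told apart here.

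**Figure D3:**
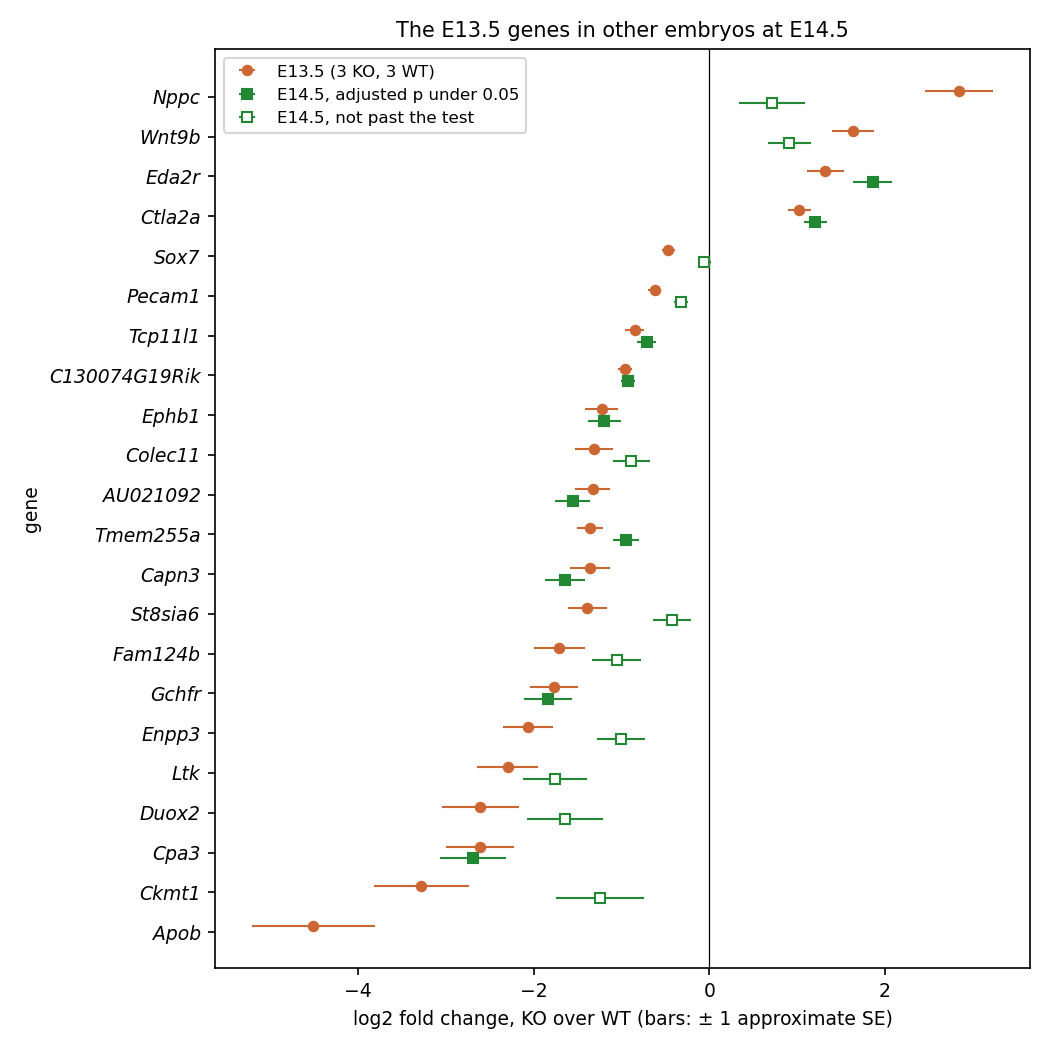
Log2 fold changes (KO over WT, bars ± 1 approximate SE) of the 22 genes at E13.5 (circles) and in the other embryos at E14.5 (squares, filled where adjusted p was under 0.05). Every square lies on the same side of 0 as its circle, and those of Sox7 and Nppc moved closest to 0 relative to E13.5; Apob has no square because its KO counts at E14.5 were 0.

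A fit of the 6 E13.5 libraries alone passed 95 genes (0.458% of 20736 tested), 29 up and 66 down, and 21 of the 22 were among them; AU021092 was not. This gene with a provisional name, also named after its values were seen, lay at 2.59, 2.64 and 2.80 CPM in WT and 0.828, 0.987 and 1.35 CPM in KO hearts (-1.33 ± 0.20, edgeR, adjusted p = 0.0272 in the 12-library and 0.0529 in the 6-library fit). The spread in the smaller fit comes from these 6 embryos, with 4 residual degrees of freedom against 8 in the fit of 12 libraries. Of the 74 genes that passed here only, 66 had the same sign at E14.5, beside 62.2% of all genes tested in the 12-library fit. Among those with at least 1 CPM the 5 lowest were Aoc3, Slco2b1, Cytl1, Spp1 and Itpka. Aoc3, an amine oxidase of vascular cells, lay at 7.43, 7.72 and 6.95 CPM in WT and 1.86, 1.22 and 1.85 CPM in KO hearts (-2.15, adjusted p = 0.00390 in the 6-library fit and 0.138 in the 12-library fit).

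Slco2b1, an organic anion transporter, lay at 2.57 ± 0.313 CPM in WT and 0.808 ± 0.256 CPM in KO hearts (adjusted p = 0.0464 and 0.0796 in the fits of 6 and 12). Cytl1, a secreted protein of endocardium, lay at 3.21, 4.001 and 5.27 CPM against 1.10, 1.72 and 1.24 CPM (0.0385 and 0.178). The matrix phosphoprotein gene Spp1 (0.0346 and 0.354) and the inositol kinase gene Itpka, 0.265 Mb from Ino80 (0.00913 and 0.0560), were lower in KO as well. That the groups do not overlap in these genes was a condition of the choice and is no result. The 5 highest were Isg15, Ifitm3, Bst2, Hsd3b3 and Hsd3b6, of which the first 3 are interferon-induced. Hsd3b6, a steroid dehydrogenase, lay at 5.66, 9.73 and 8.59 CPM in WT and 23.3, 19.5 and 20.9 CPM in KO hearts (0.0385 and 0.386). Hsd3b3 and Hsd3b6 are near-identical copies, and how reads were shared between them is uncertain.

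Endothelial genes did not move as a block. Of the 26 pan-endothelial genes 10 lay above 0, the median was -0.09, and the 2 that passed were Pecam1 and Sox7. The groups did not overlap in 14 of 26, with 6 higher and 8 lower in KO, beside 8.44% and 11.2% of all tested genes. Their summed level overlapped, at 1879 to 1972 CPM in WT and 1852 to 1882 CPM in KO hearts, while their mean log2 CPM was 5.67 in each WT heart and 5.57 to 5.58 in KO hearts. The median was -0.06 without KO replicate 5. Cdh5, the cadherin of endothelial junctions, lay at 263, 255 and 249 CPM in WT and 224, 243 and 228 CPM in KO hearts (-0.14, adjusted p = 0.558). Tek, which encodes Tie2 itself, lay at 119, 122 and 107 CPM against 111, 105 and 108 CPM (-0.10, adjusted p = 0.772), and its groups overlapped.

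Cldn5, a claudin of tight junctions, lay at 15.2, 17.5 and 18.4 CPM in WT and 8.21, 10.1 and 9.73 CPM in KO hearts. Its log2 fold change of -0.87 ± 0.17 did not pass in the 12-library fit (adjusted p = 0.109) and did in the 6-library fit (0.0170). Cav1, the coat protein of caveolae, which is named after its values were seen, stood at 194 ± 8.41 CPM in WT and 109 ± 7.78 CPM in KO hearts (0.0700 and 0.00390). Tal1, a transcription factor of endothelial and blood lineages, lay on the other side, at 16.5, 16.7 and 16.7 CPM against 20.3, 20.3 and 21.1 CPM (0.31, adjusted p = 0.273). The diaphragm protein gene Plvap was also higher, at 107, 110 and 113 CPM against 133, 138 and 134 CPM (0.30; 0.490 in the 12-library fit and 0.0455 in the 6-library fit).

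Genes of coronary arteries lay lower. Of 16, 13 were below 0 with a median of -0.22, 0 passed, and 9 separated the groups downwards (11.2% of all genes did). Cxcr4, the chemokine receptor of arterial precursors, lay at 13.3, 10.3 and 12.2 CPM in WT and 4.46, 4.19 and 6.76 CPM in KO hearts (-1.21 ± 0.26, adjusted p = 0.154). The semaphorin gene Sema3g lay at 8.95, 7.89 and 10.8 CPM against 4.24, 4.05 and 6.07 CPM (-0.93 ± 0.20, adjusted p = 0.136). Neither pair of groups overlapped. Bmx, an arterial kinase gene, stood on the other side at 12.8 ± 0.739 CPM in WT and 14.4 ± 0.581 CPM in KO hearts (adjusted p = 0.661). At E14.5 the same list had a median of -0.04.

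Of 14 capillary and venous genes, 9 were below 0 (median -0.13, or -0.20 without WT replicate 2), 0 passed, and 6 separated the groups downwards, beside 11.2% of all genes. Aplnr, the apelin receptor of sprouting veins, lay at 35.5, 44.6 and 39.2 CPM in WT and 16.4, 16.4 and 20.3 CPM in KO hearts (-1.16 ± 0.20, adjusted p = 0.0698 in the 12-library and 0.0107 in the 6-library fit). Its ligand gene Apln lay at 21.6, 22.7 and 21.1 CPM against 18.8, 17.6 and 15.9 CPM (-0.32, adjusted p = 0.651). Rgcc, a cell cycle regulator of capillaries, lay at 2.41, 3.81 and 4.01 CPM against 1.51, 1.30 and 1.78 CPM (-1.14 ± 0.20, adjusted p = 0.0560). Endocardial genes were split, with 8 of 14 above 0 and a median of 0.03, and Wnt9b alone passed. The receptor gene Npr3 (185, 171 and 157 CPM in WT, 182, 183 and 167 CPM in KO) and the transcription factor gene Nfatc1 (adjusted p = 0.739) overlapped between the groups.

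Notch signalling genes, which set arterial identity and wall formation, also lay lower: 14 of 18 were below 0, the median was -0.16, 0 passed and 9 separated the groups downwards, beside 11.2% of all genes. Mfng, a fringe enzyme that modifies Notch receptors, lay at 11.5, 12.3 and 12.8 CPM in WT and 6.15, 7.50 and 7.62 CPM in KO hearts (-0.78 ± 0.14, adjusted p = 0.0560; 0.0229 in the 6-library fit). Lfng, another fringe, lay at 4.01, 5.60 and 5.72 CPM against 3.70, 3.59 and 3.24 CPM (-0.54, adjusted p = 0.254). Hey1, a target of the pathway, lay at 14.8, 15.4 and 13.47 CPM against 10.8, 10.98 and 11.4 CPM (-0.39, adjusted p = 0.174). Hey1 is also on the coronary arterial list, so these lists share members. The ligand gene Dll1 lay on the other side (0.18, adjusted p = 0.810).

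**Figure D4:**
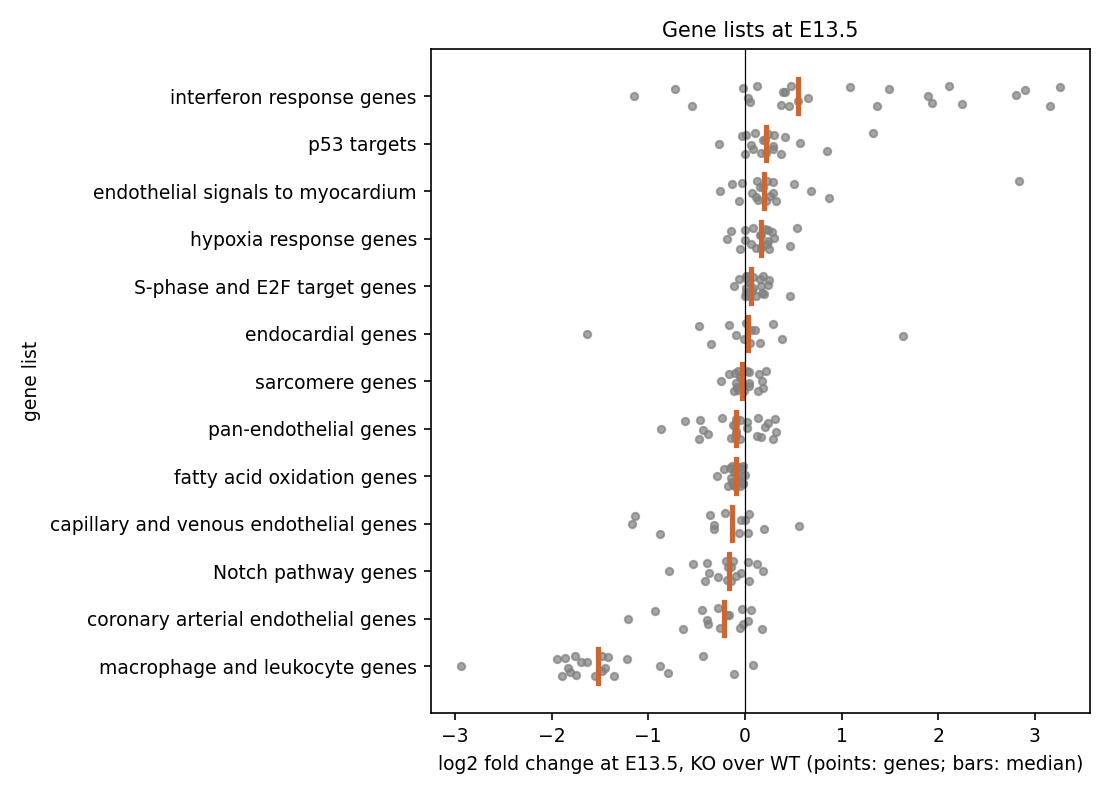
Log2 fold changes at E13.5 (KO over WT) of the members of 13 gene lists, 1 point per gene with the list median as a bar. The medians run from -1.52 for macrophage and leukocyte genes to 0.55 for interferon response genes, while the sarcomere genes stay between -0.25 and 0.21.

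Signals from endothelium to muscle leaned upwards. Of 20 genes, 16 were above 0 with a median of 0.20; 1 passed (Nppc) and 8 separated the groups upwards, beside 8.44% of all genes. Inhbb, a subunit of activin, lay at 4.84, 4.49 and 4.89 CPM in WT and 8.44, 9.06 and 8.54 CPM in KO hearts. All KO values were above all WT values (0.87 ± 0.24, adjusted p = 0.252 in the 12-library and 0.0116 in the 6-library fit). Postn, a matrix protein of valves, lay at 428, 384 and 406 CPM against 461, 564 and 468 CPM (0.29, adjusted p = 0.265). Efnb2, the ephrin ligand of arteries, stood on the other side, at 80.7, 73.5 and 71.1 CPM against 64.5, 60.9 and 63.7 CPM (-0.25, adjusted p = 0.312).

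Interferon response genes, which cells switch on against viruses or misplaced nucleic acid, had the highest median of the 28 lists apart from the Y-linked genes. Interferon-induced promoters carry a response element in which GAAA steps are spaced by a pair of bases. The motif GAAANNGAAA, or TTTCNNTTTC on the other strand, was searched in the 250 bases before each gene start of RefSeq on GRCm38.p6. It was in 10 of the 19 listed interferon genes with a promoter sequence (52.6%), in 386 of 12066 tested genes (3.20%) and in 936 of all 27025 promoters (3.46%). Of the 22 genes past the test, 1 of 19 with a promoter held it (Colec11, 5.26%), and of those in the 6-library fit 8 of 65 (12.3%). Stretches around the motif are shown for 4 listed genes, 5′ to 3′ on the strand of the gene, with the matching bases in capitals. Isg15 lies on the minus strand at chr4:156200860-156200911, Bst2 on the minus strand at chr8:71537572-71537617, Ifit1 on the plus strand at chr19:34640770-34640828 and Ifit3 on the plus strand at chr19:34583358-34583431.
Isg15: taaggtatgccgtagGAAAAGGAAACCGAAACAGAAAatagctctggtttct
Bst2: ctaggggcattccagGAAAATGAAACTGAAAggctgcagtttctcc
Ifit1: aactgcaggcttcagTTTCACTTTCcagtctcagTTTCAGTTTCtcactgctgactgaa
Ifit3: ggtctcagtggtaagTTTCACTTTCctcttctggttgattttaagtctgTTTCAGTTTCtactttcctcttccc
Isg15 and Bst2 hold runs of overlapping matches (3 and 2), while Ifit1 and Ifit3 hold 2 separate ones. A match describes the letters and is no evidence of binding.

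Of the 25 interferon genes 21 lay above 0, the median was 0.55, and 15 separated the groups upwards and 0 downwards, beside 8.44% and 11.2% of all genes. None passed in the 12-library fit, where 14 had an unadjusted p under 0.05, as had 2137 of all 20691 genes. Isg15, a ubiquitin-like protein with the 3 overlapping matches, lay at 0.653, 0.564 and 0.657 CPM in WT replicates 1, 4 and 2 and at 3.77, 2.61 and 6.69 CPM in KO replicates 3, 5 and 7 (2.81 ± 0.60, adjusted p = 0.165; 0.0191 in the 6-library fit). Bst2, which tethers budding viruses, lay at 8.07, 9.47 and 8.72 CPM against 21.5, 17.4 and 28.5 CPM (1.36 ± 0.24, adjusted p = 0.0749; 0.0277). WT hearts were close to each other in both genes, and KO hearts were spread.

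Ifitm3, a membrane protein that blocks virus entry, lay at 9.70, 9.83 and 9.79 CPM in WT and 26.5, 21.8 and 34.1 CPM in KO hearts (1.49 ± 0.27, adjusted p = 0.106; 0.0116 in the 6-library fit). The Ifitm genes are a family of close copies, so its share of reads is uncertain. Ifit1, which binds foreign RNA, lay at 0.335, 0.327 and 0.320 CPM against 2.26, 1.30 and 5.76 CPM (3.26 ± 0.85, adjusted p = 0.254). Irf7, a transcription factor of the response, lay at 0.621, 1.05 and 0.865 CPM against 2.96, 1.58 and 4.73 CPM (1.89 ± 0.44, adjusted p = 0.174). In all 5 genes KO replicate 7 was highest, replicate 3 came next and replicate 5 was lowest.

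Members differed in size. The sensors Ifih1 (1.09, adjusted p = 0.278) and Ddx58 (0.65, 0.312) and the factor Irf9 (0.55, 0.316) were higher by less than Isg15 and Ifit1 were. Ifit2 lay at 28.8, 23.5 and 22.1 CPM in WT and 26.9, 24.8 and 21.8 CPM in KO hearts. Stat2, with the motif in its promoter, lay at 15.2, 14.9 and 13.3 CPM against 15.4, 12.4 and 16.6 CPM, so both overlapped. Oas2 lay on the other side, at 0.502, 0.271 and 0.272 CPM in WT and 0.121, 0 and 0.297 CPM in KO hearts (adjusted p = 0.648). Leaving out 1 E13.5 library moved the list's median between 0.38 (without KO replicate 7) and 0.69 (without WT replicate 1), and it was 0.67 without KO replicate 5. Macrophages express many of these genes too, and macrophage genes summed to 51.3 to 124.1 CPM in KO hearts against 184 to 193 CPM in WT hearts; their part in the result was not tested. At E14.5 the list's median was 1.38 with 0 members past the test.

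The p53 targets, genes switched on by DNA damage and other stress, also leaned upwards: 18 of 20 were above 0, with a median of 0.21. Eda2r alone passed, and 11 separated the groups upwards and 1 downwards, beside 8.44% and 11.2% of all genes. Cdkn1a, the inhibitor that halts the cell cycle, lay at 19.9, 23.4 and 22.5 CPM in WT and 36.8, 41.3 and 40.6 CPM in KO hearts. All KO hearts were above all WT hearts (0.85 ± 0.19, adjusted p = 0.169 in the 12-library and 0.00701 in the 6-library fit). The nuclease gene Aen lay at 30.9, 27.8 and 31.1 CPM against 40.8, 37.7 and 38.1 CPM (0.38, adjusted p = 0.232). Mdm2, which turns p53 over, lay at 52.5, 54.1 and 48.6 CPM against 54.7, 54.8 and 52.5 CPM (0.06, adjusted p = 0.765), with overlap, and Perp was below WT (-0.27, adjusted p = 0.365).

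Of 24 S-phase genes 22 lay above 0, the median was 0.06, 0 passed and 9 separated the groups upwards, beside 8.44% of all genes. Their mean log2 CPM was higher in every KO heart (5.86 to 5.96) than in every WT heart (5.78 to 5.83), and the median lay between 0.02 (without KO replicate 3) and 0.10 (without WT replicate 2) when 1 library was left out. Of 18 mitotic genes 8 lay above 0, with a median of -0.01 and all members between -0.06 and 0.15. E2f1 overlapped between the groups (adjusted p = 0.838).

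Macrophage and leukocyte genes had the lowest median of the 28 lists, at -1.52. Of 22 members 21 lay below 0 and 15 separated the groups downwards, beside 11.2% of all genes, yet 0 passed and 9 had an unadjusted p under 0.05 (2137 of all 20691 genes had). Csf1r, the receptor for the growth factor of macrophages, lay at 23.8, 22.3 and 23.2 CPM in WT replicates 1, 4 and 2 and at 6.51, 4.03 and 11.4 CPM in KO replicates 3, 5 and 7 (-1.64 ± 0.53, adjusted p = 0.361). Itgam, an integrin of myeloid cells, lay at 1.54, 0.902 and 0.865 CPM against 0.384, 0.0987 and 0.445 CPM (-1.76, adjusted p = 0.297). KO replicate 5 was the lowest in both.

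The whole list summed to 184 to 193 CPM in WT hearts and to 107.8, 51.3 and 124.1 CPM in KO replicates 3, 5 and 7. In KO replicate 5 the resident macrophage markers Cd163 and Timd4 had 0 counts, and the macrophage genes Adgre1 (0.336 CPM), C1qb (0.276 CPM) and Cx3cr1 (0.415 CPM) were near 0. Lyz2 (adjusted p = 0.939) and Pf4 (0.943), which other cells also express, overlapped between the groups. The macrophage gene Mrc1 overlapped too, at 19.8, 17.0 and 13.7 CPM in WT and 8.93, 4.03 and 15.8 CPM in KO hearts (-0.80, edgeR, adjusted p = 0.570). Without KO replicate 5 the list's median was -1.09, and without any other E13.5 library it lay between -2.10 and -1.42. At E14.5 its median was -0.12. KO replicate 5 was also the shallowest library, with 49879860 counts, and the part of depth was not tested.

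**Figure D5:**
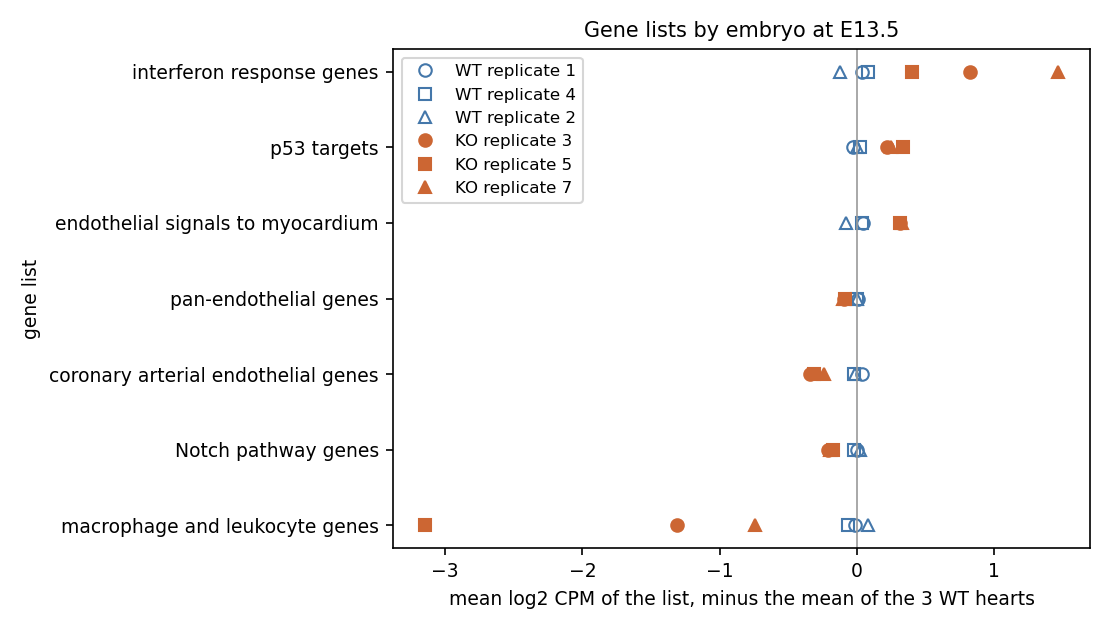
Mean log2 CPM of 7 gene lists in each E13.5 heart, minus the mean of the 3 WT hearts (open WT, filled KO). KO replicate 5 stands far below the others for macrophage genes, and KO replicates 7, 3 and 5 follow in that order above WT for interferon genes.

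Red cell genes gave a mixed picture, with 7 of 18 above 0 and a median of -0.20 (0.05 without WT replicate 2, -0.43 without KO replicate 7); 0 passed. The adult globin gene Hbb-bs lay at 1517, 1606 and 2659 CPM in WT and 744, 356 and 1234 CPM in KO hearts (-1.31 ± 0.87, adjusted p = 0.635). The embryonic globin genes lay on the other side. Hba-x was at 77.4, 107 and 118 CPM in WT and 208, 195 and 293 CPM in KO hearts (1.21 ± 0.63, adjusted p = 0.546), and Hbb-y at 810, 1205 and 1115 CPM against 1866, 2071 and 2380 CPM (1.01, adjusted p = 0.673). In each of these 3 genes the groups did not overlap, and the globin genes are close copies. Over the 18 red cell genes 2 separated the groups upwards and 3 downwards, beside 8.44% and 11.2% of all genes. Of 12 megakaryocyte genes 7 lay above 0, and the median of 0.12 changed sign with the library left out (-0.19 without KO replicate 3, -0.07 without WT replicate 4, -0.04 without WT replicate 1 and 0.28 without WT replicate 2); Itgb3, an integrin of platelets and endothelium, was at 13.2 ± 0.205 CPM in WT and 18.4 ± 0.801 CPM in KO hearts (adjusted p = 0.139; 0.0277 in the 6-library fit).

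Of 20 sarcomere genes 9 lay above 0, the median was -0.03 (0.03 without WT replicate 2) and 0 passed. The groups separated in 0 of them, in either direction, beside 19.6% of all tested genes. Myh6, the fast myosin heavy chain, lay at 2700, 3124 and 2817 CPM in WT and 3217, 2228 and 1815 CPM in KO hearts (-0.25, adjusted p = 0.760), with wide overlap. Of 15 genes of compact and trabecular muscle 0 passed, the median was -0.03 (-0.11 without WT replicate 2), and members ran from -0.44 to 0.69. The groups did not overlap in 7 of them, with 3 higher and 4 lower in KO, beside 8.44% and 11.2% of all genes. The summed level was higher in every KO heart (3038 to 3365 CPM) than in every WT heart (2705 to 2908 CPM). A large part of that gap is the member Ankrd1 (means of 678 CPM in WT and 999 CPM in KO hearts), while 10 of the 15 members lay below 0. Hey2, a transcription factor of compact muscle, lay at 160, 152 and 149 CPM against 139, 138 and 130 CPM (-0.18, adjusted p = 0.487). Ankrd1, a stress-responsive muscle protein, stood at 633, 710 and 692 CPM against 1122, 1110 and 765 CPM (0.56, adjusted p = 0.379).

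Metabolic lists moved little in size but mostly one way. All 22 fatty acid oxidation genes lay below 0, the lowest at -0.29, with a median of -0.10 (-0.04 without KO replicate 7); 0 passed and 6 separated the groups downwards, beside 11.2% of all genes. Ppargc1a, a coactivator of mitochondrial genes, was at 122, 114 and 102 CPM in WT and 95.3, 96.0 and 85.9 CPM in KO hearts (-0.29, adjusted p = 0.355). Of 20 hypoxia response genes 17 lay above 0 with a median of 0.17, and 6 separated the groups upwards, beside 8.44% of all genes. The median was 0.08 without WT replicate 2 and 0.09 without KO replicate 5. P4ha2, a collagen prolyl hydroxylase, lay at 28.5, 26.4 and 22.9 CPM against 34.1, 39.7 and 34.4 CPM (0.47, adjusted p = 0.215), while Vegfa overlapped (0.00, adjusted p = 0.997).

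Valve mesenchyme (12 of 14 above 0, median 0.08), epicardium (8 of 12, 0.10), fibroblast matrix (8 of 12, 0.02), pericytes and smooth muscle (5 of 12, -0.07) and lymphatic endothelium (4 of 8, 0.04) had 0 members past the test. With 1 E13.5 library left out, the medians ran from just under 0 to 0.23 for valve, 0.03 to 0.15 for epicardium, -0.09 to 0.09 for fibroblast matrix, -0.18 to -0.03 for pericytes and smooth muscle, and -0.09 to 0.07 for lymphatic endothelium. The epicardial factor gene Wt1 lay at 26.3, 26.5 and 23.6 CPM in WT and 28.5, 26.2 and 25.8 CPM in KO hearts (0.07, adjusted p = 0.827). The epicardial keratin gene Krt19 was at 23.4, 29.0 and 25.0 CPM against 34.9, 46.5 and 35.5 CPM (0.59, adjusted p = 0.355). Cnn1, a calponin of smooth muscle, lay at 210, 215 and 233 CPM against 286, 282 and 271 CPM (0.35, adjusted p = 0.169). Nerve (6 of 10 above 0), skeletal muscle (3 of 6) and liver (2 of 7) genes also had 0 members past the test. The median of the liver genes was -0.51, and 0.44 without WT replicate 4. Of the liver genes 3 separated the groups downwards and 1 upwards, beside 11.2% and 8.44% of all genes.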

How the data were processed

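Whole-heart RNA of 12 mouse embryos was sequenced, and the authors deposited a table of raw counts per gene symbol (45664 rows, whole numbers, no normalization). STAR 2.5.3a, featureCounts, DESeq and DESeq2 are listed in the submitters' processing notes, as is build GRCm38. Not given in the sources used here are annotation release, strand setting and treatment of multi-mapping reads. The 37 rows of mitochondrially encoded genes are at 0 in all libraries, and 27 rows have symbols turned into dates.

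In R 4.3.3, edgeR 4.0.16 (filterByExpr, TMM, quasi-likelihood fit with a robust prior) fitted 1 mean per group to all 12 libraries, with 8 residual degrees of freedom and a common biological coefficient of variation of 17.1%. Two-sided tests were adjusted by Benjamini-Hochberg over 20691 genes, with a threshold of 0.05. An SE is the absolute log2 fold change over the square root of F. Scripts were tested on simulated data. Coordinates come from GENCODE M21 on GRCm38.

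The comparison, the 28 gene lists (429 genes, 416 tested), the 20 Mb window and the rule for named genes were chosen with earlier results of these data known. That rule named Ino80; all genes past the test, without clone-based symbols; the 5 highest and 5 lowest of the 6-library fit with at least 1 CPM; 3 members on the median's side and 1 on the other per list; and a fixed panel. List members named with their values beyond these were chosen after their values were seen. For the 5 highest and 5 lowest, the rule also required no overlap between the groups and left out sex-linked genes. Lists are described by counts and medians, with no test of the list, and some genes are on more than 1 list. Alternatives were DESeq2 1.42.0, RLE size factors, no low-count filter, the 6 libraries alone, litter as a term, a covariate for Y-linked expression, and each library left out in turn. A fit without the robust prior was added after seeing the data. Results for some withheld genes are not reported here.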

Additional observations from a re-analysis of the deposited data

How the results depend on the processing

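The count of 22 genes depended on the fit more than their fold changes did. DESeq2 passed 310 genes (116 up, 194 down), all 22 among them. No low-count filter gave 40, the 6 E13.5 libraries alone 95, litter as a term 60, and Y-linked expression as a covariate 9. RLE size factors gave 22 and the fit without a robust prior 16. Leaving out 1 library in turn gave 2 (without E13.5 WT replicate 4) to 69 (without E14.5 KO replicate 1). At E13.5, WT replicate 1 left out gave 4, WT replicate 2 gave 21, and KO replicates 3, 5 and 7 gave 4, 6 and 5. Omitting E14.5 KO replicates 2 or 4 gave 62 and 45. The cause was not tested. Of the 22 genes, 11 passed at E14.5; DESeq2 gave 17, and leaving out 1 library gave 5 to 13 (5, 7 and 6 without E14.5 KO replicate 2, KO replicate 4 or WT replicate 7.2). The stage difference passed for 0 of the 22 genes under each setting run. The fold change of each of the 22 kept its sign under every setting. The median over all genes stayed within 0.02 of 0. No paired analysis was possible because embryo numbers do not pair WT with KO hearts, and all 6 E13.5 embryos share 1 litter.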
